A study of Mus musculus with 6 samples.

Results

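The genes described here are 32 genes of glucose breakdown and of the response to low oxygen, out of 52636 genes in the deposited count table. They were found by gene symbol, from a list of roles: 4 transporters of glucose and lactate, 9 genes of upper glycolysis, 6 of lower glycolysis, 4 of the lactate and pyruvate branch, 3 for hypoxia-inducible factor (HIF) and its regulators, and 6 genes that low oxygen induces. All 32 symbols were found. Aldoa had 2 gene IDs, of which the one with more counts was used. The filter on low counts kept 31 of the 32 and left out Adm.

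Glycolysis splits glucose into pyruvate in a chain of enzymes and yields ATP without oxygen, and lactate dehydrogenase then turns pyruvate into lactate. When oxygen is scarce, prolyl hydroxylases no longer mark HIF-1α for destruction, and the HIF dimer binds short DNA elements near genes of glucose uptake, glycolysis, lactate export and blood vessel growth. In the embryonic forebrain, radial glia divide while vessels are still growing in, and they are known to rely on glycolysis more than the neurons they produce.

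mRNA was sequenced from Prominin1-positive cells of E12.5 mouse forebrains, sorted as radial glia of the cortex. The mutants, SmadNes, combined Nestin:Cre+/0 with Smad1wt/fl and Smad5wt/fl. The controls were Nestin:Cre0/0 and carried the same floxed alleles, and all mice were on a background mixed from CD1, 129/ola and C57BL6. Nestin:Cre places Cre recombinase in neural progenitors, and the mutants kept 1 wild-type copy of each Smad gene. Each group had 3 pools, named SF5_6, SF4 and SF3 in both, and the labels do not say how many embryos made up a pool or what sets the names apart. Spread in the tests below is spread among these pools where the pool name is not in the fit. Where it is, as in the test among pools, the spread is what is left once pool and genotype differences are taken out. That rests on 1 SmadNes-labelled and 1 control library per pool.

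The libraries held 32997423 to 40744672 expected counts each. Smad5 stood at 373 to 411 CPM (counts scaled to 1e6 per library, with TMM factors) in the libraries labelled SmadNes and at 287 to 299.9 CPM in control libraries, and Smad1 at 85.7 to 92.9 CPM against 72.7 to 77.8 CPM. The targeted genes were thus higher, not lower, in the libraries labelled SmadNes. Whole-gene counts do not check a deletion of some exons, so every direction between genotypes rests on the labels. Cells of other kinds were present in all libraries, and none of the listed markers was at 0 in every library.

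The promoters of 4 of these genes are printed because their transcripts differed most between the pools: Slc16a3 and Slc2a1 were higher in SF5_6, and Aldoc and Ddit4 lower. Each window runs from 250 bases before to 50 after a transcript start, from RefSeq on GRCm38.p6, 5′ to 3′ on the strand of the gene. Capitals mark matches to ACGTG or GCGTG on either strand (CACGT or CACGC where the match is on the other strand), the core of the DNA element that HIF binds.

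Slc16a3, chr11:120948817-120949116, plus strand: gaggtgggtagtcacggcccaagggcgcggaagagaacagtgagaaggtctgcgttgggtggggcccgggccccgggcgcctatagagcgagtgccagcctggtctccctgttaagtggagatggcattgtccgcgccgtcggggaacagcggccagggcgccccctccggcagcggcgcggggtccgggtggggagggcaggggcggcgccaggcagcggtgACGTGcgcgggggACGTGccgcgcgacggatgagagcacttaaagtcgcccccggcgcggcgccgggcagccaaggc

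Slc2a1, chr4:119108495-119108794, plus strand: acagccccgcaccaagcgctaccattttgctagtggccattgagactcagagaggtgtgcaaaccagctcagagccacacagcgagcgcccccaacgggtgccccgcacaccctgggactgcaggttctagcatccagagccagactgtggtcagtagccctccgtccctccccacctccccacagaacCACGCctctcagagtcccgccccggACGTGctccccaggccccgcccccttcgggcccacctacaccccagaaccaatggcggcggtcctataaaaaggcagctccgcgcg

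Aldoc, chr11:78322823-78323122, plus strand, the first of 2 windows: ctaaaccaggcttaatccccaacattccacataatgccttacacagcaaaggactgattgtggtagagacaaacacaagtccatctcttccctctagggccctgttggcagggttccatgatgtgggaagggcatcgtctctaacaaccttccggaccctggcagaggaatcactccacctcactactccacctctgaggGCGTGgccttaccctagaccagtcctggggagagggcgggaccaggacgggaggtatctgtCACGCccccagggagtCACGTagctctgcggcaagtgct

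Ddit4, chr10:59951721-59952020, minus strand: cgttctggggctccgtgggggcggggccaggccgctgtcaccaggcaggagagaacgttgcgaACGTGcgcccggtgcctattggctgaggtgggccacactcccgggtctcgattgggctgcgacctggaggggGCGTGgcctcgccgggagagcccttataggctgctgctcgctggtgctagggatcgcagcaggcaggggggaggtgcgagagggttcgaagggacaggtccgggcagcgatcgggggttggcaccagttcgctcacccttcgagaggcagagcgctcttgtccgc

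The Slc16a3, Slc2a1 and Ddit4 windows each held 2 matches, and the Aldoc window held 3. These genes were picked for their differences between pools, in both directions, and all held the motif, so the matches cannot bear on direction. Of the 31 member genes with a window, 28 (90.3%) held at least 1 match, against 46.7% of 27025 genes in the RefSeq table. At least 2 matches in 1 window were found for 24 of 31 member genes (77.4%), against 22.9% of all genes. A CACGTG counts on both strands and so gives 2 overlapping matches. The member windows were richer in G and C, with a median of 62.8% against 52.7% for all windows, and the part of base composition in the matches was not tested. Gpi1, Tpi1 and Eno2 had no match in their windows. These are counts of letters in 300 bases and not of bound sites.

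Levels between genes were compared on a length-scaled level, the counts per kilobase of exon scaled to 1e6 per library. The length is that of all annotated exons of a gene joined, so the order of genes depends on it. On that scale the 32 genes together made up 6298, 6033 and 5857 units in the SmadNes-labelled SF5_6, SF4 and SF3 libraries, and 6292, 6096 and 5797 units in the control libraries. The enzymes of lower glycolysis stood highest. Gapdh, which makes the first high-energy intermediate of the payoff phase, averaged 1184 ± 42.9 units (SD, n = 6 libraries). Pkm, the pyruvate kinase that ends the pathway, averaged 981 ± 30.3 units, and its highest library, at 1011, lay below the lowest of Gapdh, at 1121. Pgam1 (570.4) and Pgk1 (548), the phosphoglycerate mutase and kinase, followed. Then came Eno1 (354), Ldha (352), Ldhb (326) and Tpi1 (322), whose neighbouring values lay within their spread over libraries. By CPM, Eno1, at 464 to 499.9 over the libraries, lay above Pgk1 (289 to 339) and Pgam1 (268 to 315). Gapdh (1192 to 1309 CPM) and Pkm (1195 to 1296 CPM) overlapped by that measure.

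A lower group held the entry and control steps. Aldoa, an aldolase, stood at 202 units and Gpi1, glucose phosphate isomerase, at 119, while Aldoc, the aldolase isoenzyme of brain, stood at 105. Of the phosphofructokinases, which commit sugar to glycolysis, Pfkm stood at 91.1, Pfkl at 66.3 and Pfkp at 8.13 units. By mean CPM in SmadNes-labelled and control libraries the order was Pfkl (114 and 112), Pfkm (76.6 and 78.8) and Pfkp (25.6 and 30.0). Hexokinase, which traps glucose in the cell, was represented by Hk2 at 36.3 and Hk1 at 19.5 units. The widely expressed glucose transporter Slc2a1 (GLUT1) stood at 58.9 units and the neuronal Slc2a3 (GLUT3) at 10.8. The lactate transporters Slc16a1 (MCT1) and Slc16a3 (MCT4) stood at 42.3 and 6.63 units. The pyruvate dehydrogenase kinases, which keep pyruvate from the mitochondrial cycle, stood at 49.6 (Pdk3) and 22.9 units (Pdk1), and the neuronal enolase Eno2 at 10.1.

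Among the oxygen genes, Ddit4 (REDD1), which restrains the growth kinase mTORC1, was highest, at 183 units. Hif1a, the oxygen-regulated HIF subunit, stood at 147 units, and the prolyl hydroxylases Egln1 (PHD2) and Egln3 (PHD3) at 99.1 and 15.6. By CPM Hif1a (213 to 232 over the libraries) lay above Ddit4 (66.8 to 96.6). The vessel growth factor Vegfa stood at 47.6, the mitophagy protein Bnip3 at 42.7 and the collagen prolyl hydroxylase subunit P4ha1 at 36.9 units. Ankrd37, a HIF target whose role is less known, stood at 4.58 units. Adm, the vessel-active peptide adrenomedullin, had 9, 2 and 4 expected counts in the SmadNes-labelled SF5_6, SF4 and SF3 libraries and 4, 3 and 4 in the control libraries. With 2 to 9 counts per library, no difference in Adm was detectable at this depth.

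**Figure D1:**
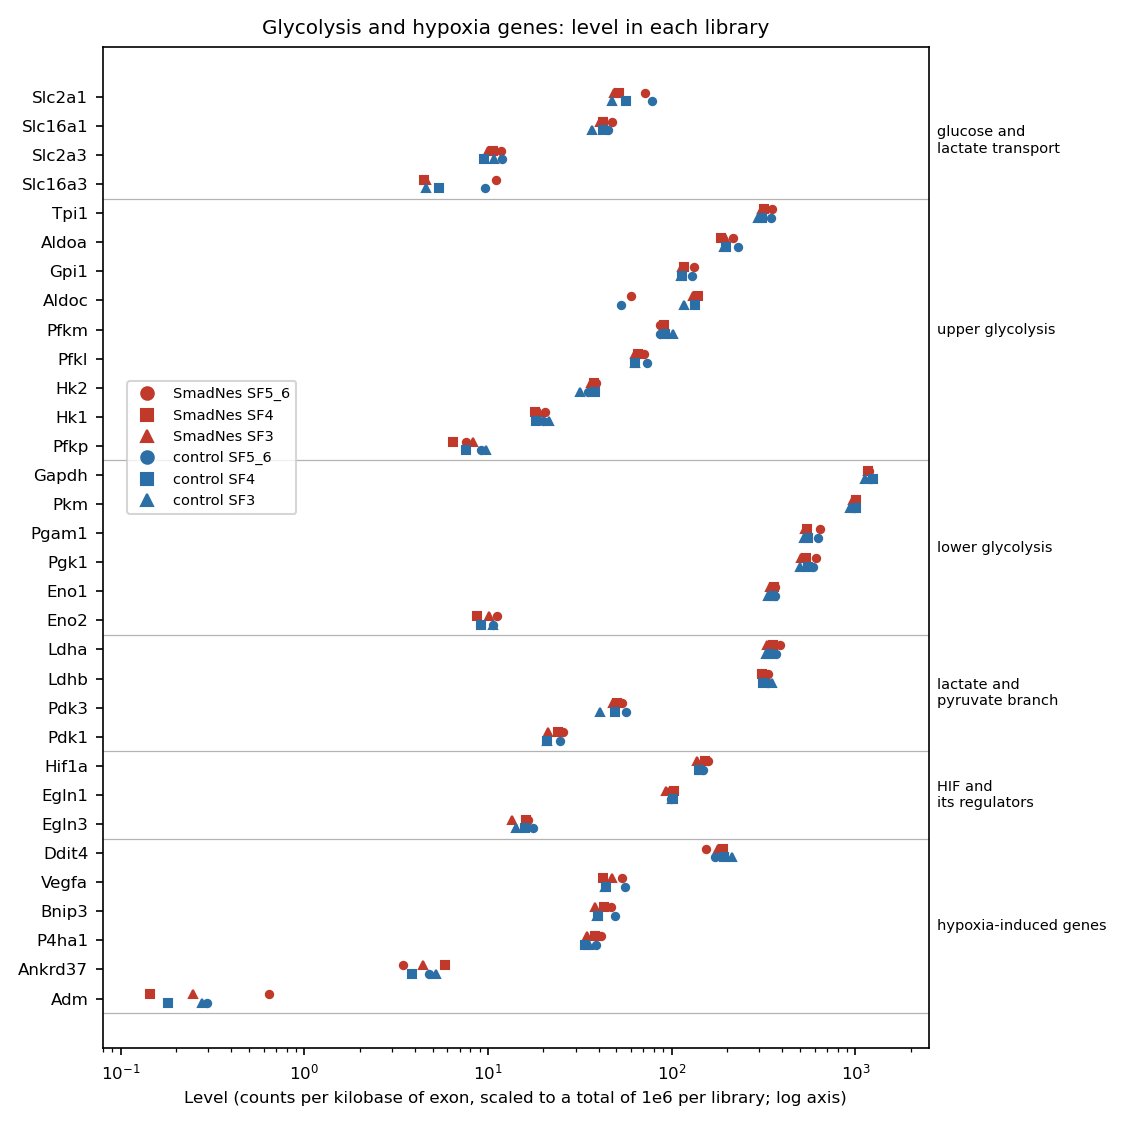
Length-scaled level (log axis) of each of the 32 genes in each of the 6 libraries, 1 point per library, grouped by role and ordered by level within a role. Gapdh and Pkm lie highest and Adm lowest, and most genes span a narrow range over the libraries, while the SF5_6 points of Slc16a3 and Aldoc stand away from the others.

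Eno1 and Pgam1 have near-identical copies in the genome, and the authors' counting could split reads between them. Eno1b, a retrocopy of Eno1, stood at 98.7 to 107 CPM and Pgam1-ps2, a pseudogene, at 0.397 to 2.53 CPM. The level of Eno1 is therefore uncertain by the share that belongs to Eno1b. The second Aldoa ID stood at 0.579 to 1.12 CPM.

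The first comparison asks whether these genes differ when Nestin:Cre acts on the floxed Smad1 and Smad5 alleles. None of the 31 tested genes passed edgeR's quasi-likelihood test between genotypes, and the test called 0 of 16869 genes (0%). Of all genes, 177 (1.05%) had an unadjusted p under 0.05, among them 0 of the 31. Log2 differences, SmadNes minus control, had a median of 0.03 over the 31 genes and -0.00 over all tested genes. Folds ran between 0.852 and 1.1, with an absolute log2 difference under 0.1 for 26 of the 31. In bulk samples, fewer cells of a type and less RNA per cell cannot be told apart.

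The fit with the pool name as a block removes the differences between pools, and it called 4 of 16869 genes (0.0237%), none of them among the 31. The targeted gene Smad5, higher in the SmadNes-labelled libraries, was among the 4 (edgeR adjusted p = 0.00757 with the block). An unadjusted p under 0.05 was reached by 1051 genes (6.23%) and by 4 of the 31 (12.9%), Hk2, Pfkp, Aldoc and Ddit4. The smallest adjusted p among the 31 was 0.397, for Pfkp. DESeq2 without the block called 7 genes (0.0415%) and 0 of the 31. The 95% interval of the log2 difference lay within ±0.5 for 26 of the 31 genes without the block, and for 30 with it. The exception with the block was Ankrd37, at -0.51 to 0.51.

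By direction alone, 10 of the 31 genes (32.3%) were higher in the SmadNes-labelled library of all 3 pairs, against 13.8% of all tested genes. They were Hk2, Gpi1, Aldoc, Tpi1, Pgam1, Eno1, Pkm, Ldha, Pdk1 and Slc16a1, of which 7 are enzymes of the glycolytic chain itself. Pfkp and Ddit4 (6.45%) were lower in all 3 pairs, against 14.3% of all genes. These are small steps: the log2 differences of the 10 lay between 0.03 and 0.14. The count also depends on the scaling, here TMM-scaled CPM. On the length-scaled level Hk2 (37.9 against 38.0 units), Pgam1 (546 against 550.2) and Pkm (1003 against 1011) were lower in the SmadNes-labelled SF4 library. Eno1 was lower in that of SF5_6 (364 against 365), and the rest of the 10 stayed higher in each pair. The share of all genes on that scale was not counted. The summed CPM of 10 radial glia markers was also higher in the SmadNes-labelled library of each pair. It stood at 2207, 2019.6 and 1837 CPM in SF5_6, SF4 and SF3 against 2137, 1948 and 1712 CPM. Only 2 of the 10 (20%, against 13.8% of all genes), Prom1 and Emx2, were higher in all 3 pairs. In SF5_6 Nes stood at 566 against 484 CPM, while Vim, Sox2, Hes1, Hes5 and Slc1a3 were lower in the SmadNes-labelled library. The part of radial glia in the differences between genotypes was not tested. The SmadNes-labelled libraries lay wholly above the controls by CPM for 1 gene, Eno1 (3.23%, against 2.39% of all genes). It had 488, 499.9 and 487 CPM in SF5_6, SF4 and SF3 against 486, 487 and 464 CPM in controls. The SmadNes-labelled SF3 and control SF4 values were the same to 3 digits. On the length-scaled level the groups of Eno1 overlapped, with 364, 359 and 344 units against 365, 354 and 335. By CPM the SmadNes-labelled libraries lay wholly below the controls for 0 of the 31 (2.38% of all genes).

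Pfkp, the platelet-type phosphofructokinase, showed the largest genotype difference of the 31. It had 25.2, 22.3 and 29.2 CPM in the SmadNes-labelled SF5_6, SF4 and SF3 libraries, against 30.5, 26.0 and 33.6 CPM in the control libraries. Each SmadNes-labelled library lay below the control of its own pool, while the groups as a whole overlapped. The log2 difference was -0.23 (SE 0.134, 95% interval -0.56 to 0.09, unadjusted p = 0.133 by edgeR). With the block the SE was 0.053 and the unadjusted p 0.00199, with an adjusted p of 0.397. Within the pools the log2 differences were -0.28 in SF5_6, -0.22 in SF4 and -0.20 in SF3.

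Hk2, the inducible hexokinase, had 57.6, 58.5 and 56.8 CPM in the SmadNes-labelled SF5_6, SF4 and SF3 libraries and 52.0, 57.9 and 48.8 CPM in controls. The SmadNes-labelled libraries were close together, and the control SF4 library lay within their range. The log2 difference was 0.12 (SE 0.071, 95% interval -0.05 to 0.29, edgeR unadjusted p = 0.129), with an adjusted p of 0.758 under the block. Aldoc was higher within each pair, by 0.19, 0.08 and 0.18 on the log2 scale, and its difference with the block was 0.15 (SE 0.041, edgeR adjusted p = 0.516). Without the block the SE of Aldoc was 0.449, since its spread between pools was large.

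Ddit4 had 66.8, 86.2 and 82.7 CPM in the SmadNes-labelled SF5_6, SF4 and SF3 libraries, against 74.2, 86.2 and 96.6 CPM in the control libraries. The SF4 values were the same to 3 digits, and the groups overlapped. The log2 difference was -0.13 (SE 0.13, edgeR unadjusted p = 0.373), with an adjusted p of 0.752 under the block.

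Hif1a had 232, 232 and 214 CPM in the SmadNes-labelled SF5_6, SF4 and SF3 libraries and 216, 213 and 217 CPM in controls, a log2 difference of 0.07 (SE 0.05). The SmadNes-labelled SF3 library lay among the controls. P4ha1 had 42.0, 40.6 and 37.2 CPM against 39.6, 35.4 and 37.4 CPM in controls, a log2 difference of 0.09 (SE 0.072), and its groups overlapped. Neither passed the test, with unadjusted p of 0.202 for Hif1a and 0.238 for P4ha1 by edgeR.

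Ldha, Pdk1 and Slc16a1 were higher in the SmadNes-labelled library of each pair without passing the test. Ldha, the lactate dehydrogenase subunit that favours lactate formation, had 321, 303 and 287 CPM in the SmadNes-labelled libraries and 302, 289 and 277 CPM in controls, in the order SF5_6, SF4 and SF3. Pdk1 had 49.7, 48.4 and 43.2 CPM against 47.3, 41.4 and 42.0 CPM, and Slc16a1 had 51.9, 48.4 and 47.6 CPM against 49.2, 47.6 and 41.8 CPM in controls. In each of these genes the 2 groups overlapped. The log2 differences were 0.07 (SE 0.061) for Ldha, 0.11 (SE 0.081) for Pdk1 and 0.09 (SE 0.076) for Slc16a1, with edgeR unadjusted p of 0.29, 0.21 and 0.263.

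The members of highest level in lower and in upper glycolysis differed little. Gapdh had 1220, 1244 and 1269.8 CPM in the SmadNes-labelled SF5_6, SF4 and SF3 libraries, against 1249, 1309 and 1192 CPM in controls, a log2 difference of -0.01 (SE 0.056). Tpi1, triose phosphate isomerase, had 241, 225 and 223 CPM against 236, 218 and 209.7 CPM in controls, a log2 difference of 0.05 (SE 0.062). Both groups overlapped for each gene.

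**Figure D2:**
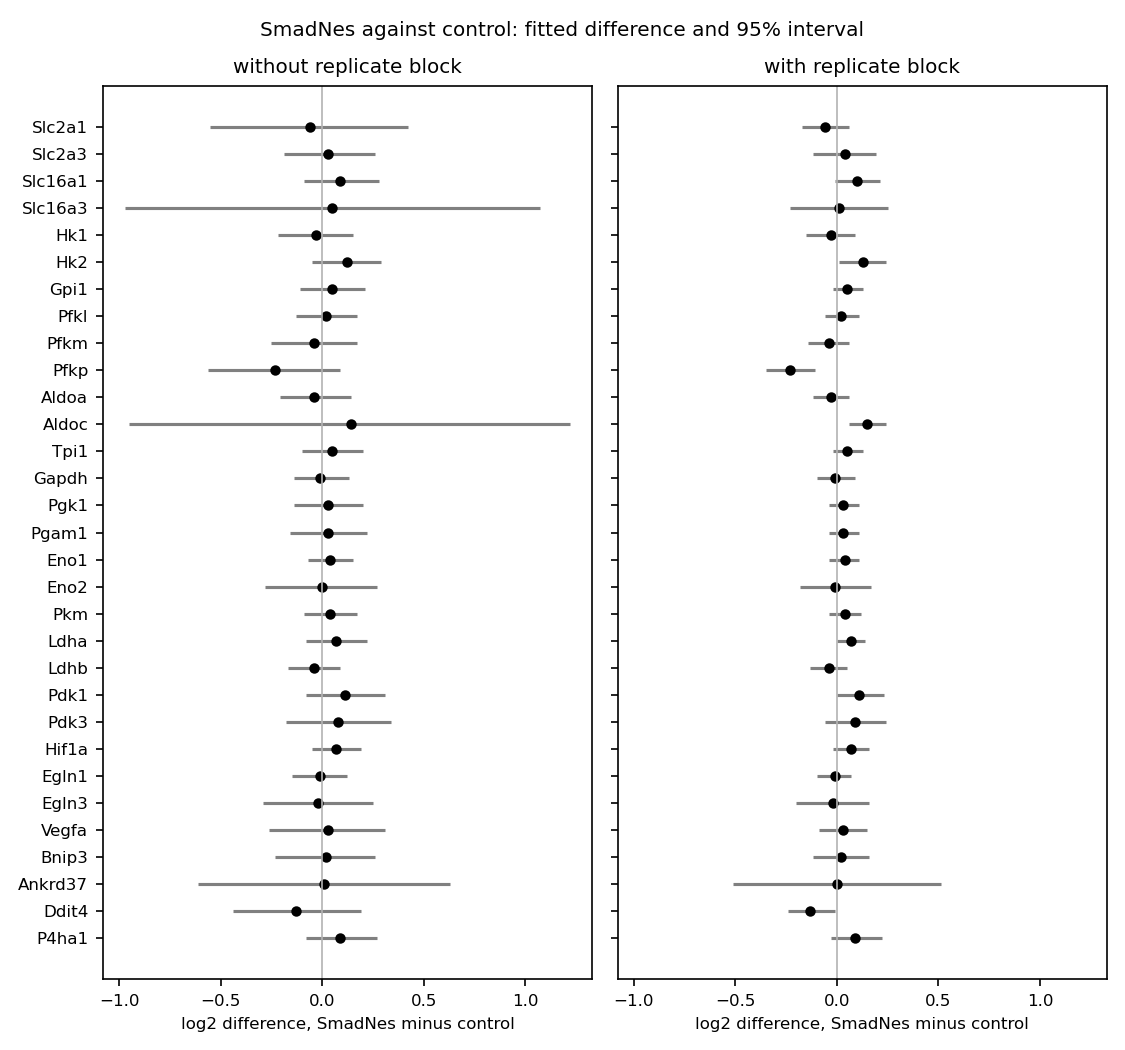
Log2 difference, SmadNes minus control, of the 31 tested genes, with 95% intervals from edgeR without and with the pool name as a block. Without the block the differences lie between the folds of 0.852 and 1.1, and the intervals of Aldoc, Slc16a3 and Slc2a1 are wide without the block and narrow with it.

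Isoenzyme shares, the part of 1 paralogue in the length-scaled level of its family, need no scaling between libraries. Hk2 made up 66.3% ± 1.21 of Hk1 and Hk2 in the SmadNes-labelled libraries and 63.7% ± 3.89 in controls (SD, n = 3 each), higher in 3 of 3 pairs, with p = 0.4 by exact two-sided permutation test. Pfkp made up 4.55% ± 0.586 of the 3 phosphofructokinases against 5.25% ± 0.503 in controls, lower in 3 of 3 pairs (exact permutation p = 0.2). The size of that difference depended on the length used for these genes, at -0.694 percentage points by exon length, -1.44 by coding transcript length and -1.73 on raw counts. Ldhb, the subunit that favours lactate use, made up 47.2% ± 1.27 of Ldha and Ldhb against 49.1% ± 2.37, also lower in 3 of 3 pairs (exact permutation p = 0.3). None of these differences could be told from the spread between pools, and the exact test of 3 against 3 libraries cannot go below p = 0.1. The 6 shares tested gave adjusted p-values between 0.8 and 0.9.

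The remaining shares were small or rested on the pool. Eno2 made up 2.73% ± 0.32 of Eno1 and Eno2 in the SmadNes-labelled libraries and 2.82% ± 0.287 in controls (SD, n = 3 each, exact permutation p = 0.7). Slc2a3 made up 16.1% ± 1.76 of Slc2a1 and Slc2a3 against 15.4% ± 2.8 (exact permutation p = 0.9). Aldoc made up 34.9% ± 11.5 of Aldoa and Aldoc against 32.3% ± 11.8 (exact permutation p = 0.6), and was higher within 3 of 3 pairs. By pool, the mean Aldoc share was 20.3% in SF5_6, 41.5% in SF4 and 39.0% in SF3, a larger gap than that between genotypes. Within the pools the Aldoc share was 21.8% against 18.8% in SF5_6, 42.8% against 40.3% in SF4 and 40.1% against 37.9% in SF3, SmadNes-labelled before control. With 1 library left out the pools are no longer balanced, and the sign of the genotype difference turned, in percentage points, for Aldoc without the SmadNes-labelled SF4 (-1.39) or SF3 library (-0.0144) or the control SF5_6 library (-4.19), for Eno2 without the SmadNes-labelled SF4 (0.1) or the control SF3 library (0.0605), and for Slc2a3 without the control SF5_6 library (-0.374).

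**Figure D3:**
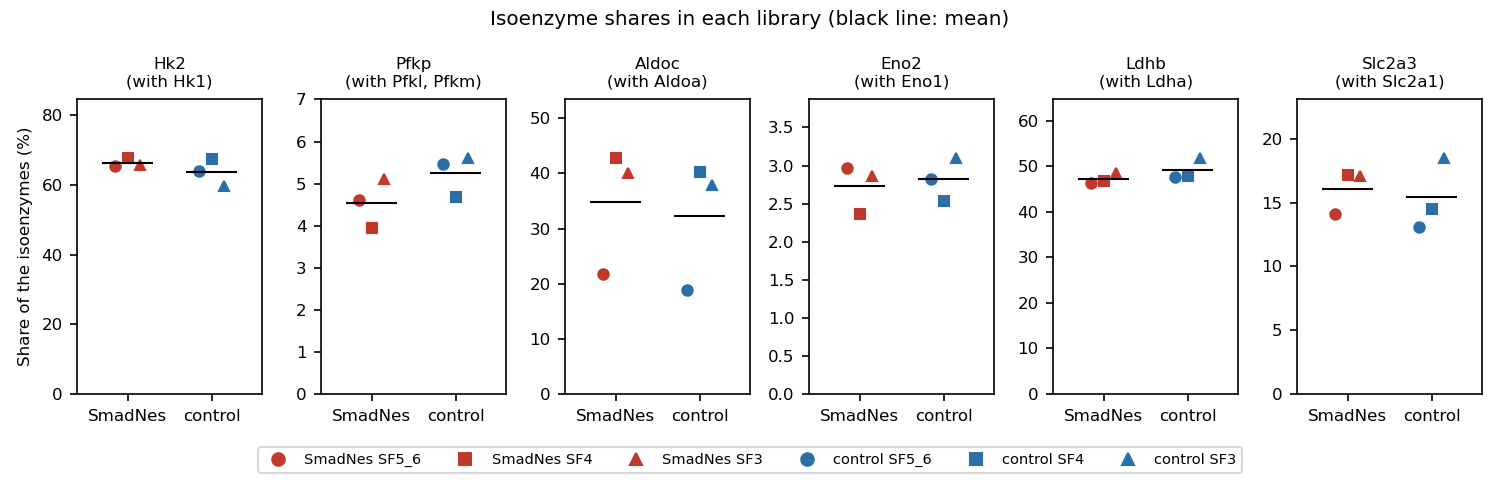
Share (%) of 1 isoenzyme in its family in each library, with SmadNes-labelled libraries left of controls and 1 marker shape per pool. The groups overlap in each of the 6 families, and the Aldoc share splits by pool, with both SF5_6 libraries at 18.8% and 21.8%.

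The second comparison asks whether the genes differ among the pools SF5_6, SF4 and SF3, each 1 SmadNes-labelled and 1 control library, with genotype as a covariate. Here 10 of the 31 genes (32.3%) passed edgeR's F test, a share near that of all genes, of which 4864 of 16869 (28.8%) passed. The 10 were Slc2a1, Slc16a3, Gpi1, Pfkm, Pfkp, Aldoc, Pgk1, Pgam1, Vegfa and Ddit4. SF5_6 had the highest or the lowest pool mean in 9 of them, and Pfkp was lowest in SF4. That count was not made over all genes. Over all genes too, SF5_6 against either other pool called more than SF4 against SF3, as given below. Without the control SF5_6 library 5 of the 31 were called, and without each other single library 7 to 10.

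Set against SF3, SF5_6 was higher in 9 genes (29%, against 13.5% of all tested genes), Slc2a1, Slc16a3, Gpi1, Tpi1, Pgk1, Pgam1, Ldha, Vegfa and Bnip3, and lower in 3 (13.9% of all genes), Pfkm, Aldoc and Ddit4. Set against SF4, it was higher in 6 (19.4%, against 13.1%), Slc2a1, Slc16a3, Gpi1, Aldoa, Pgam1 and Vegfa, and lower in 2 (12% of all genes), Aldoc and Ddit4. These contrasts share the SF5_6 libraries. SF4 against SF3 called 0 of the 31 higher (0.581% of all genes) and 1 lower (3.01% of all genes), Pfkp. The median log2 difference of the 31 was 0.13 for SF5_6 minus SF3 and 0.09 for SF5_6 minus SF4, with 0.00 and -0.00 over all genes.

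Both SF5_6 libraries lay above the other 4 libraries for 13 of the 31 genes (41.9%, against 23.2% of all genes), and below them for 4 (12.9%, against 24.8%). Called at an adjusted p below 0.05 against both other pools, SF5_6 was higher in 5 of the 31 (16.1%, against 8.07% of all genes), Slc2a1, Slc16a3, Gpi1, Pgam1 and Vegfa, and lower in 2 (6.45%, against 9.64%), Aldoc and Ddit4. The 13 lying above in both libraries were the transporters Slc2a1, Slc2a3, Slc16a1 and Slc16a3, the enzymes Gpi1, Pfkl, Aldoa, Tpi1, Pgk1 and Pgam1, and Pdk3, Vegfa and Bnip3. All 4 transporters were among them, but Slc2a3 (edgeR adjusted p = 0.286) and Slc16a1 (0.11) did not pass the F test. The 4 lying below were Pfkm, Aldoc, Egln1 and Ddit4.

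Aldoc (ENSMUSG00000017390.15, GRCm38 chr11:78322968-78327781) differed most. It had 48.7 and 42.7 CPM in the SmadNes-labelled and control SF5_6 libraries, 117 and 111 CPM in SF4, and 112 and 98.5 CPM in SF3. Both SF5_6 libraries lay far below the other 4. The level was 0.435 times that in SF3 (log2 difference -1.20, SE 0.051) and 0.4 times that in SF4 (-1.32), with an F test adjusted p of 4.18e-06 by edgeR. Aldoa, the other aldolase, went the other way, with a mean of 161 CPM in SF5_6, 143 CPM in SF4 and 146 CPM in SF3, and passed against SF4 but not in the F test (edgeR adjusted p = 0.0587).

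The transporters Slc16a3 and Slc2a1 were the genes furthest above in SF5_6. Slc16a3 (ENSMUSG00000025161.16, GRCm38 chr11:120948480-120960868), the lactate exporter of strongly glycolytic cells, had 14.5 and 12.7 CPM in the SmadNes-labelled and control SF5_6 libraries, 6.19 and 7.37 CPM in SF4, and 6.44 and 6.28 CPM in SF3. Both SF5_6 libraries stood well clear of the rest. The level was 2.14 times that in SF3 (log2 difference 1.10, SE 0.129) and 2.0 times that in SF4 (SE of the log2 difference 0.128), with an edgeR adjusted p of 0.000495.

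Slc2a1 (ENSMUSG00000028645.11, GRCm38 chr4:119108711-119137983), the glucose transporter of the blood-brain barrier and of neural progenitors, had 62.5 and 67.9 CPM in the SmadNes-labelled and control SF5_6 libraries, 46.6 and 50.2 CPM in SF4, and 44.8 and 42.8 CPM in SF3. It too did not overlap between SF5_6 and the other pools. The log2 differences were 0.57 (SE 0.061) over SF3 and 0.43 (SE 0.061) over SF4, or 1.49 and 1.35 times, with an edgeR adjusted p of 0.000491.

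Ddit4 was the only one of the 5 tested hypoxia-induced genes called lower in SF5_6. Its SF5_6 libraries had 66.8 and 74.2 CPM, the SF4 libraries 86.2 and 86.2 CPM, and the SF3 libraries 82.7 and 96.6 CPM, SmadNes-labelled before control in each. Both SF5_6 libraries lay below the other 4, with log2 differences of -0.35 from SF3 (SE 0.06) and -0.29 from SF4 (edgeR adjusted p = 0.0054). Vegfa had 57.4 and 59.2 CPM in SF5_6, 46.5 and 47.8 CPM in SF4, and 53.4 and 47.5 CPM in SF3, and was called higher in SF5_6, with log2 differences of 0.21 (SE 0.065) over SF3 and 0.31 over SF4 (edgeR adjusted p = 0.0177). Both genes are induced by low oxygen, and here they differed in opposite directions.

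The enzymes differed by less. Pgam1 had 315 and 308 CPM in SF5_6, 279.7 and 279 CPM in SF4, and 278 and 268 CPM in SF3, which gave log2 differences of 0.19 (SE 0.04) over SF3 and 0.16 over SF4 (edgeR adjusted p = 0.015). Pgk1 was higher in SF5_6 than in SF3 by 0.18 (edgeR adjusted p = 0.0324 in the F test), and Gpi1 was higher by 0.15 over SF3 and 0.14 over SF4 (0.0364). Pfkm, the muscle-type phosphofructokinase, had 71.3 and 71.0 CPM in SF5_6, 78.7 and 78.3 CPM in SF4, and 79.6 and 87.0 CPM in SF3, and was lower in SF5_6 than in SF3 (log2 difference -0.23, SE 0.053, edgeR F test adjusted p = 0.0289). Pfkp averaged 27.8 CPM in SF5_6, 24.1 CPM in SF4 and 31.4 CPM in SF3, with SF4 minus SF3 at -0.38 (SE 0.065, edgeR adjusted p = 0.0164).

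Some of these calls were lost without 1 library, by edgeR's adjusted p in the F test. Pgam1 was lost without the SmadNes-labelled (0.113) or the control SF5_6 library (0.11). Vegfa was lost without the SmadNes-labelled SF4 (0.0801) or the control SF5_6 library (0.151), and its difference from SF3 was 0.10 without the control SF3 library, where it was still called. Pfkm was lost without the control SF3 (0.0776) or the control SF5_6 library (0.202), and by DESeq2. Pfkp was lost without the genotype term. Gpi1 was lost by DESeq2 (adjusted p = 0.096), without the filter, without the genotype term and without each single library (0.0562 to 0.266), and Pgk1 without each single library (0.0588 to 0.172), so both calls rested on all 6 libraries. Aldoc, Slc2a1, Slc16a3 and Ddit4 were called under every alternative run.

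Of the genes not called, those of HIF and its hydroxylases and the most abundant enzymes had these pool means. Hif1a averaged 224, 222 and 215 CPM in SF5_6, SF4 and SF3, Egln1 87.5, 94.5 and 90.4 CPM, and Egln3 11.2, 10.9 and 9.55 CPM. Pkm averaged 1227, 1294 and 1231 CPM and Gapdh 1234, 1277 and 1231 CPM in the same order. Of the HIF and prolyl hydroxylase genes, 0 of 3 passed, and of the lactate and pyruvate branch 0 of 4, beside 28.8% of all genes. With so few genes these counts cannot be told from that share. A gene not called could still differ in its means by as much as a called one. Pdk3 averaged 34.8 CPM in SF5_6, 32.8 CPM in SF4 and 29.5 CPM in SF3, and Bnip3 27.0, 24.0 and 22.8 CPM, which was 1.18 times SF3 in SF5_6 for each. Bnip3, Tpi1 and Ldha passed against SF3 alone (edgeR adjusted p of 0.0441, 0.035 and 0.0288) and not in the F test.

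**Figure D4:**
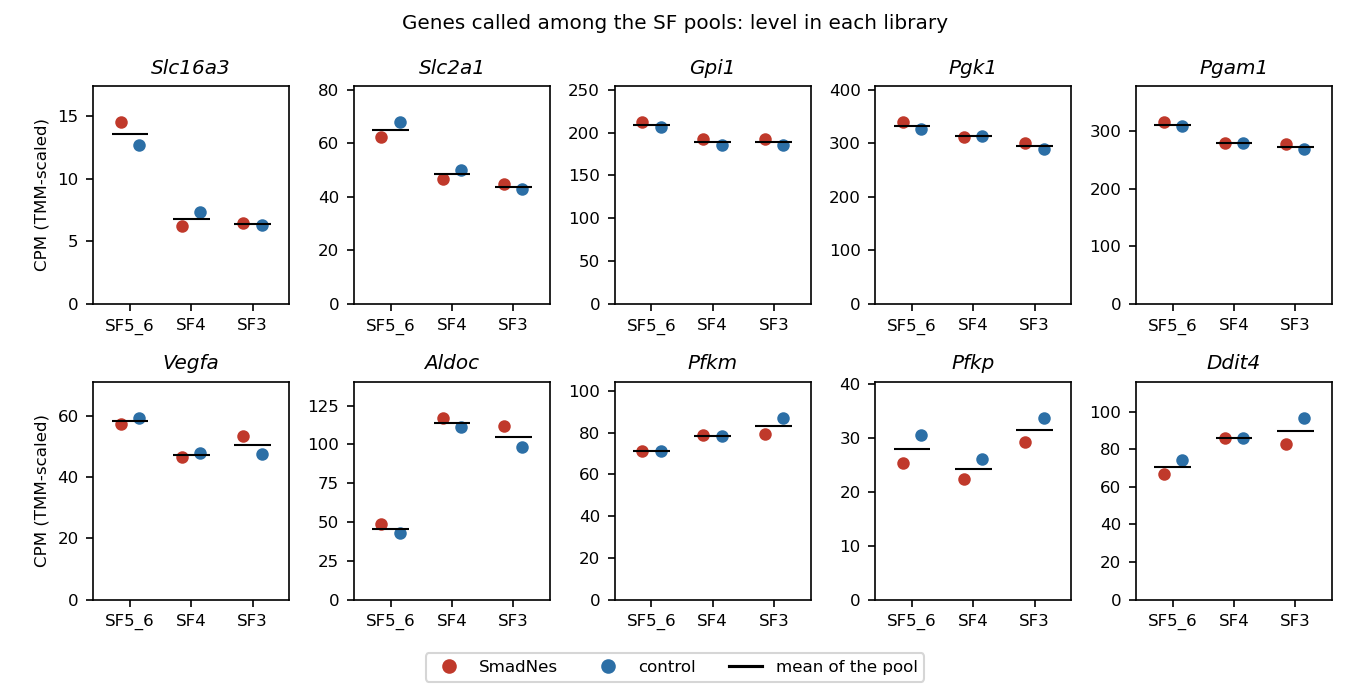
CPM of the 10 genes called among the pools, 1 panel per gene, with pools SF5_6, SF4 and SF3 from left to right and 1 point per library. In Aldoc both SF5_6 libraries lie at 48.7 and 42.7 CPM, and in Slc16a3 at 14.5 and 12.7 CPM, away from the other 4 libraries.

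**Figure D5:**
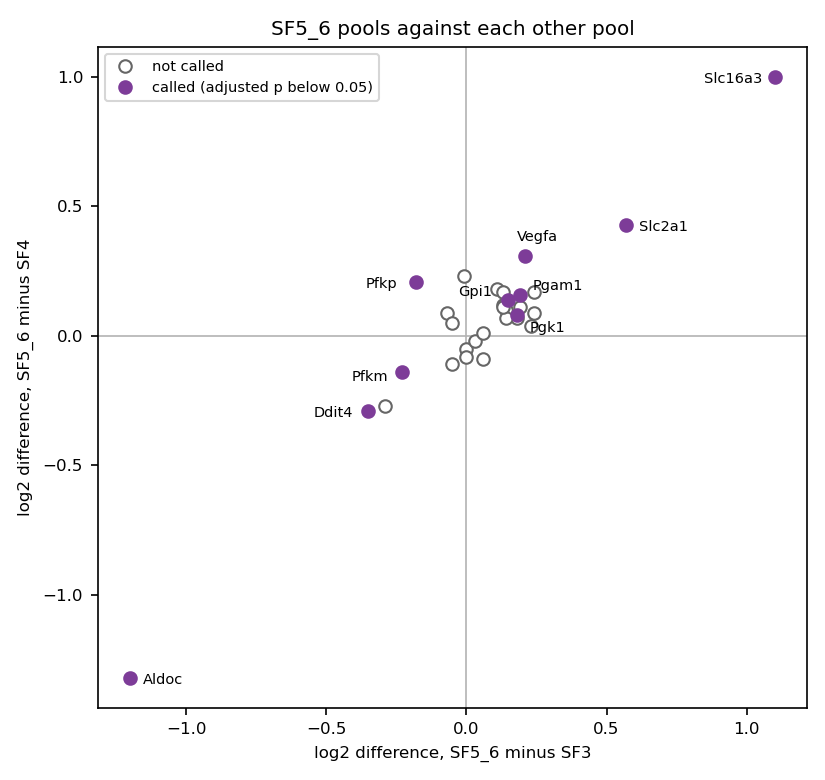
Log2 difference of SF5_6 from SF3 (horizontal) and from SF4 (vertical) for the 31 genes, with filled points for genes called in the F test. Both axes share the SF5_6 libraries, so points fall along the diagonal; Slc16a3 and Slc2a1 lie at the upper right and Aldoc at the lower left.

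Markers of other cells moved with the pools. The summed CPM of 9 erythroid markers was 656 and 1109 in the SmadNes-labelled and control SF5_6 libraries, 123 and 116 in SF4, and 359 and 378 in SF3, and 8 of 8 tested markers passed the F test, not all in 1 direction. The embryonic globin Hbb-y averaged 384 CPM in SF5_6, 17.7 CPM in SF4 and 72.5 CPM in SF3, while Hbb-bs averaged 33.4, 27.5 and 73.0 CPM and Hbb-bt 25.6, 10.6 and 30.6 CPM, both highest in SF3. The summed CPM of 7 mesenchyme markers was 1279.6 and 1019 in SF5_6, 272 and 437 in SF4, and 859.5 and 619 in SF3, with 7 of 7 called. The summed markers of red cells and of connective tissue were thus higher in both SF5_6 libraries than in every other library. The same held for the sums of ventral telencephalon and radial glia markers given below, and for Slc16a3 and Slc2a1. The part of any of these cells in the levels of Slc16a3 and Slc2a1 was not tested.

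The 6 microglia markers summed to 53.4 and 53.1 CPM in SF5_6, 12.3 and 14.0 CPM in SF4, and 74.8 and 69.7 CPM in SF3 (6 of 6 called). The 7 ventral telencephalon markers summed to 139 and 195 CPM in SF5_6, 21.5 and 32.2 CPM in SF4, and 25.4 and 76.7 CPM in SF3 (6 of 7 called). In that list the SmadNes-labelled library was the lower one of each pair.

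The 10 radial glia markers summed to 2207 and 2137 CPM in SF5_6, 2019.6 and 1948 CPM in SF4, and 1837 and 1712 CPM in SF3 (8 of 10 called). The 5 intermediate progenitor markers summed to 880.2 and 945 CPM in SF5_6, 1465 and 1397 CPM in SF4, and 1347 and 1382 CPM in SF3 (4 of 5 called). The 7 neuronal markers summed to 3530.1 and 3517 CPM in SF5_6, 4113 and 4002 CPM in SF4, and 4178 and 4791 CPM in SF3 (5 of 7 called). The radial glia sum was highest, and the intermediate progenitor and neuronal sums lowest, in SF5_6. Single called markers went another way: Stmn2, a neuronal gene, averaged 158 CPM in SF5_6, 108 CPM in SF4 and 144 CPM in SF3, and Pax6, of the radial glia list, 133, 149 and 131 CPM.

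Slc2a1 and Vegfa bear on vessels, whose cells also express Slc2a1. The 6 endothelial markers summed to 21.6 and 22.8 CPM in SF5_6, 19.4 and 16.9 CPM in SF4, and 21.6 and 17.8 CPM in SF3 (2 of 5 tested were called). Most of that sum was Kdr, at a mean of 15.5 CPM in SF5_6, 15.6 CPM in SF4 and 13.8 CPM in SF3. The 2 called, Cdh5 (3.06, 1.17 and 3.27 CPM) and Pecam1 (1.41, 0.564 and 1.06 CPM), were lowest in SF4, and the median log2 difference of the 5 tested was 1.32 for SF5_6 minus SF4 and 0.17 for SF5_6 minus SF3. The 4 choroid plexus markers summed to between 152 and 297 CPM (1 of 4 called). The part of the mix of cells, or of what else the pool names stand for, in the differences between pools was not tested.

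Other genes of the same pathways were counted from lists that do not hold the 32. None of the tested genes of these 4 lists (30, 7, 16 and 27 genes) was called between genotypes, with or without the block. Arnt2, a neural partner of HIF-α subunits, had the smallest p. It had 227, 233 and 222 CPM in the SmadNes-labelled SF5_6, SF4 and SF3 libraries and 245, 264 and 263 CPM in controls, so that all 3 lay below all controls. Its log2 difference was -0.18 (SE 0.051, edgeR unadjusted p = 0.0116), with an adjusted p of 0.381 under the block. Cited2, which competes with HIF for its coactivator, had 71.5, 89.0 and 78.9 CPM against 88.1, 86.5 and 95.8 CPM in controls, and its groups overlapped.

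Among the pools, 9 of 30 tested genes of other glycolytic, transport and pyruvate steps passed the F test (28.8% of all genes did). Emb, the partner protein of lactate transporters, averaged 25.6 CPM in SF5_6, 11.3 CPM in SF4 and 13.2 CPM in SF3. Pdk2 averaged 22.0, 32.9 and 35.2 CPM in the same order, and Bpgm, the enzyme that makes bisphosphoglycerate in red cells, 40.1, 28.5 and 26.7 CPM. Bpgm was lowest in SF3, while the sum of erythroid markers was lowest in SF4. Hk3, a hexokinase of blood cells, averaged 2.01, 0.239 and 2.92 CPM, the same order of pools as the microglia sum. Both SF5_6 libraries of Emb and Bpgm were above the other 4, and those of Pdk2 below.

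Of 7 pentose phosphate genes, 2 passed (28.6%, beside 28.8% of all genes), both lower in SF5_6. Tkt, transketolase, averaged 284 CPM in SF5_6, 369.7 CPM in SF4 and 339 CPM in SF3, and G6pdx, the entry enzyme of that pathway, 53.4, 61.2 and 65.4 CPM. Of 16 other HIF pathway regulators 1 passed (6.25%, beside the same 28.8%), Hif3a, with 60.4 CPM in SF5_6, 42.6 CPM in SF4 and 40.6 CPM in SF3.

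Of 27 other hypoxia-induced genes, 15 (55.6%) passed the F test by edgeR, beside the 28.8% of all genes, and 10 by DESeq2 (18.7% of all genes). Against both other pools 7 were higher in SF5_6 (25.9%, against 8.07% of all genes), Plod2, Lox, Higd1a, Gbe1, Angptl4, Ak4 and Rora, and 2 were lower (7.41%, against 9.64%), Ndrg1 and Ccng2. Angptl4, a lipase inhibitor, averaged 5.91 CPM in SF5_6, 2.47 CPM in SF4 and 3.36 CPM in SF3, and Lox, a collagen crosslinker, 26.3, 11.9 and 20.5 CPM. Ndrg1, a stress-responsive gene, averaged 3.87 CPM in SF5_6, 10.8 CPM in SF4 and 17.3 CPM in SF3. Hmox1, haem oxygenase, averaged 6.25, 3.03 and 12.1 CPM, again in the order of the microglia sum. Angptl4 and Lox had the order of the erythroid and mesenchyme sums, and Ndrg1 had neither order. The part of the mix of cells in these values was not tested.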

How the data were processed

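The deposited table held expected counts per gene, which the authors estimated with RSEM 1.3.0 for stranded libraries on GENCODE M15 after mapping to GRCm38 with STAR 2.5.3a, per the labels' protocols. The deposited counts are whole numbers. The sources used here do not give how they were made whole. The submitters' processing notes also name DESeq2 1.18. RSEM divides reads among similar genes by estimation, so close copies are uncertain.

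All 6 columns were used. Positions and exon lengths came from GENCODE M21 (52403 IDs matched). Differences were tested with edgeR 4.0.16 in R 4.3.3 (quasi-likelihood F test, TMM scaling, filterByExpr by genotype, 16869 genes, Benjamini-Hochberg over all of them, called below an adjusted p of 0.05). Genotype was the only term between genotypes, and genotype was a covariate in the test among pools. DESeq2 1.42.0, other scaling, no filter, the pool name as a replicate block and leaving out each library were alternatives.

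The pool names pair the samples: deviations from the group means correlated at 0.493, 0.697 and 0.724 within a name and at -0.058 or below between names. Taking deviations from the mean of 3 libraries pushes values between names below 0 when those within are above it. The values between names are thus not separate evidence for the pairing. The depth of 32997423 to 40744672 counts means that 3 counts, the limit a count of 0 allows, came to at most 0.0909 CPM, for counting error only.

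The members, the other gene lists and the markers were chosen with earlier results of these data known. Values in every library were given for the 8 members with the smallest p in each comparison, for any member called between genotypes and for the highest member of each role. The other members have their mean level, and the other pathway genes were named if called or among the 3 smallest p-values of their list. Others named, such as Eno1 and Aldoa, were chosen after their values were seen.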

Additional observations from a re-analysis of the deposited data

How the results depend on the processing

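Between genotypes, 0 of the 31 tested glycolysis and hypoxia genes were called under each alternative, and the 8 genes ranked first kept their direction in all 104 recomputations. Over all genes, 0 were called without the block, 7 by DESeq2 and 4 with the replicate block, which left the call of no glycolysis or hypoxia gene changed. With the block and 1 pair left out the count over all genes was 149 without SF5_6, 48 without SF4 and 10 without SF3, and 0 of the 31 in each. Those fits have fewer samples, and the cause was not tested.

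Among the pools, the count of the 31 genes called ran from 5 to 10 when each library was left out. It was 5 without the control SF5_6 library. Over all genes the count was 3161 by DESeq2 and 3380 to 5029 with 1 library left out, against 4864. Over the 10 called genes, 77 recomputations kept the call and 23 lost it, none with a change of sign. The adjusted p was 0.0847 for Pfkp without the genotype term, 0.113 and 0.11 for Pgam1 without the SmadNes-labelled and the control SF5_6 library, and 0.0801 and 0.151 for Vegfa without the SmadNes-labelled SF4 and the control SF5_6 library. For Pfkm it was 0.096 by DESeq2, 0.0776 without the control SF3 and 0.202 without the control SF5_6 library. Gpi1 was lost by DESeq2 (0.096), without the filter (0.0742), without the genotype term (0.0593) and without each single library (0.0562 to 0.266), and Pgk1 without each single library (0.0588 to 0.172). The count of other hypoxia-induced genes called was 10 by DESeq2, 17 without the filter and 10 to 16 with 1 library left out, against 15.

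The share differences, SmadNes minus control in percentage points, ran from -4.19 to 9.15 for Aldoc, from -0.226 to 0.1 for Eno2 and from -0.374 to 2.31 for Slc2a3 when each library was left out and turned sign in that range, in fits where the pools are no longer balanced. The Aldoc share was higher in the SmadNes-labelled library within 3 of 3 pools. Those of Hk2 (0.54 to 4.42), Pfkp (-0.981 to -0.39) and Ldhb (-2.63 to -0.526) kept their sign. By length used, the Pfkp difference was -0.694 with exon length, -1.73 without division by length and -1.44 with coding transcript length, an alternative chosen after seeing the data. Slc2a3 had 0.741 with exon length and 1.17 without division, and Eno2 -0.0815 with exon length and -0.0528 with coding transcript length. For Aldoc the sign turned without the SmadNes-labelled SF4 or SF3 library and without the control SF5_6 library. Taken within pools, the exact permutation p of the shares cannot go below 0.25, a value that Hk2, Pfkp, Aldoc and Ldhb reached.

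The p-values rest on 3 pools per genotype, and the pool names are unexplained. Low counts limit Adm and Ankrd37.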
